A study of Mus musculus with 12 samples.

Results

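Subcutaneous fat was compared between mice that carried human HKDC1 in the liver and mice given the empty vector, over all genes of the count table and with attention to genes outside lymphocyte, muscle and hepatocyte programs. The comparison rests on 6 of the 12 libraries of the series, 3 from null fat and 3 from hHKDC1 OE fat, taken by their sample titles (SC_Nu and SC_FL). The other 6 are liver libraries of the same 2 groups. All the mice were males injected once through the tail vein at 10 weeks of age with an adeno-associated virus of serotype 8, then fed a low-fat diet, and tissue was taken 16 weeks after injection. The null vector and the AAV8-TBGp-humanHKDC1 vector both carry the promoter of thyroxine-binding globulin, a hepatocyte protein, so fat was not the tissue in which expression was driven. Each library came from 1 mouse. The label of treatment calls all 3 hHKDC1 OE fat libraries overexpression, while another label calls replicates 2 and 3 knockouts. The titles were followed. Human HKDC1 was not analysed here, and mouse Hkdc1 had 0 to 7 counts per fat library, which checks neither label.

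White fat stores triglyceride in adipocytes that stand among fibroblasts, vessels, nerves and resident immune cells. Insulin favours storage there through the kinase AKT, which keeps FOXO transcription factors out of the nucleus. Glucocorticoids act through a nuclear receptor that binds DNA and switches on a set of genes shared by many tissues, such as Fkbp5, Tsc22d3 and Per1, and the clock genes set a daily rhythm on much of the same metabolism. A dissected inguinal depot also holds a lymph node and can carry muscle, skin or blood with it.

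Counts on genes ran from 15663540 to 19954971 per fat library, and values are given as CPM (counts scaled to a common library size after TMM normalization), in the order of replicates 1, 2 and 3. Adipoq and Plin1, which mark adipocytes, had at least 27280 and 28674 counts in each fat library and at most 5 and 6 in each liver library. Other tissues were present to different degrees. The 316 tested genes of the leukocyte and lymph node lists summed to 5147, 3857 and 5447 CPM in the null libraries and 24897, 7528 and 23627 CPM in the hHKDC1 OE libraries, so that replicate 2 was the hHKDC1 OE library nearest to null. The 139 tested genes of the skeletal muscle list summed to 45817, 55088 and 2088 CPM in the null libraries and 32111, 2934 and 6535 CPM in the hHKDC1 OE libraries, high in 2 null libraries and 1 hHKDC1 OE library. A marker list of 117 tested hepatocyte genes summed to 11023, 10024 and 23778 CPM in the null libraries and 10012, 8033 and 8378 CPM in the hHKDC1 OE libraries, highest in null replicate 3. In bulk tissue, fewer cells of a type and less RNA per cell cannot be told apart.

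**Figure D1:**
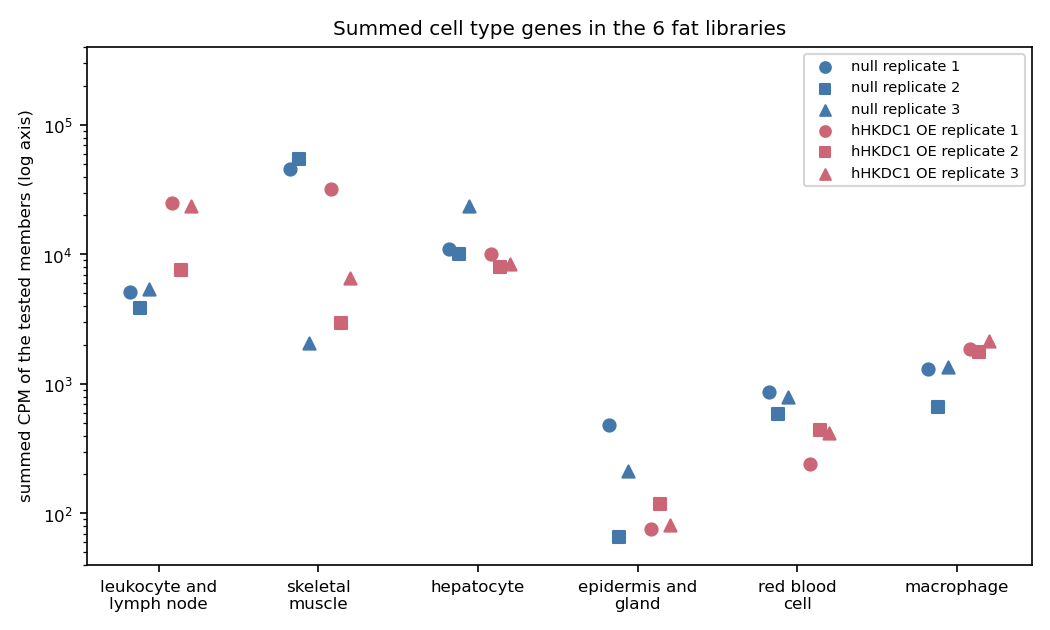
Summed CPM of the tested members of 6 cell type lists (log axis) in each of the 6 fat libraries, null in blue and hHKDC1 OE in red, with the symbol giving the replicate. Leukocyte genes were highest in hHKDC1 OE replicates 1 and 3, muscle genes in null replicates 1 and 2 and hHKDC1 OE replicate 1, and hepatocyte genes in null replicate 3.

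Of 16380 genes tested, 0 (0%) passed an adjusted p of 0.05 in the quasi-likelihood test of edgeR after Benjamini-Hochberg adjustment, where the smallest adjusted p was 0.133. At an unadjusted p under 0.05 the same test gave 1856 genes higher in hHKDC1 OE fat (11.3% of those tested) and 1047 lower (6.39%). DESeq2, the tool the study used, was fitted to the whole count table, and its adjusted p was read for the genes tested here. Of the 16368 with an adjusted p, it gave one under 0.05 to 1050 higher (6.41%) and 176 lower (1.08%). The 3 hHKDC1 OE libraries all lay above the 3 null libraries in 2045 genes (12.5%) and all below them in 1674 (10.2%). These shares stand beside the gene groups below as a description, since the groups were chosen with earlier results known. Without hHKDC1 OE replicate 2 alone, the edgeR test called 1957 genes higher and 1294 lower. The choice of normalization mattered to the split: when only library size was used for scaling, the median log2 fold change of all genes moved from -0.05 to 0.11, and the unadjusted counts became 2695 higher and 400 lower. Setting aside 1030 tested genes of leukocyte, lymph node, skeletal muscle and hepatocyte programs left 15350 genes, of which 1781 (11.6%) lay above the null range in all 3 hHKDC1 OE libraries and 1552 (10.1%) lay below it. Within the programs the shares were 25.6% and 11.8%. Since no gene passed the main test, genes are called higher or lower by their values, and with 3 mice against 3 the smallest p of a two-sided exact permutation test is 0.1, which is the value for each gene whose groups did not overlap.

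**Figure D2:**
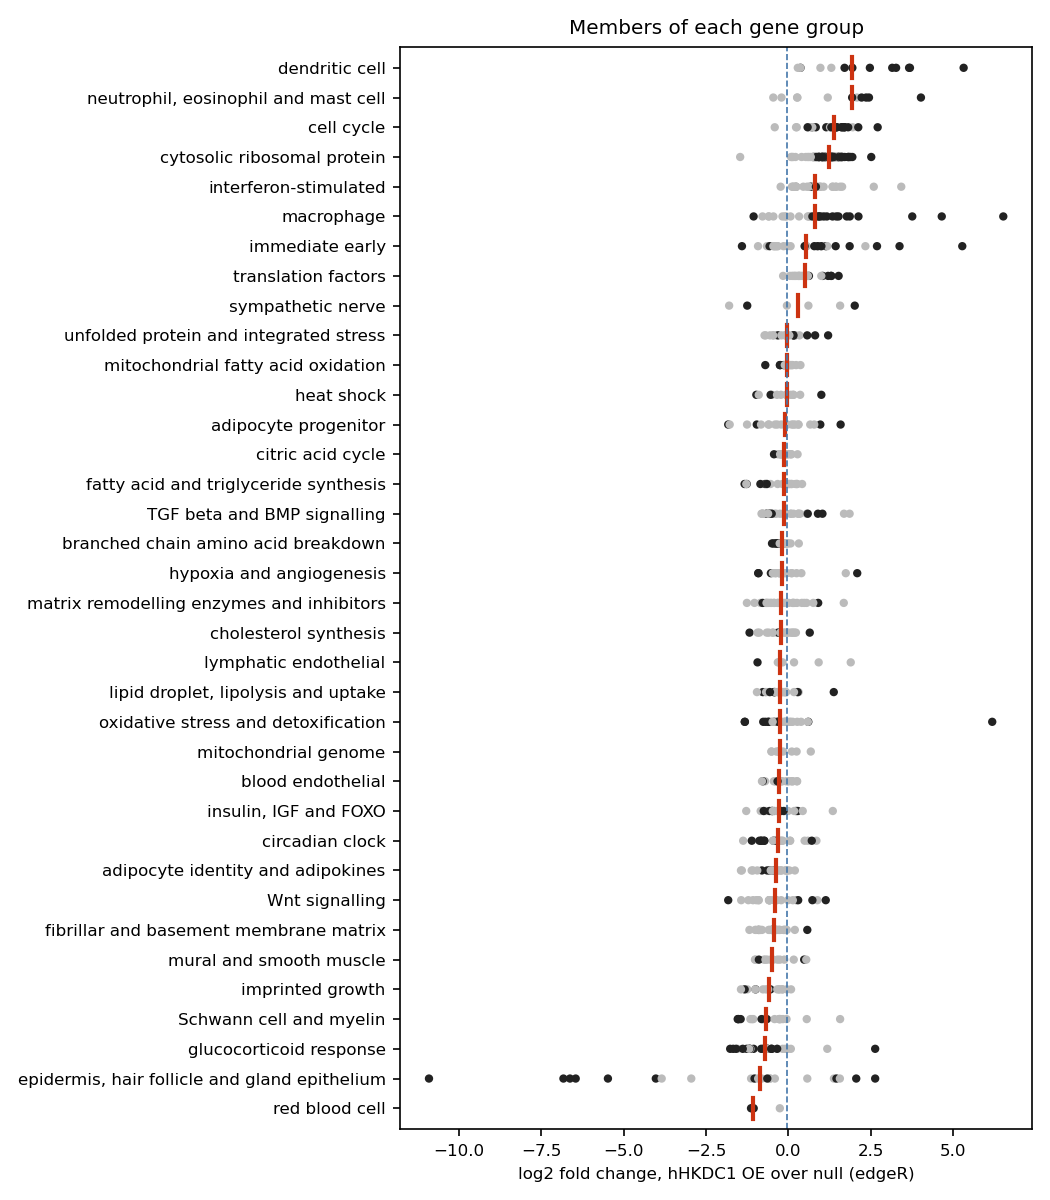
Log2 fold change of hHKDC1 OE over null fat by edgeR for every tested member of 36 gene groups, with black points for genes whose 2 groups of libraries did not overlap, grey points for the others, red bars for the group medians and a dashed line at the median of all tested genes (-0.05). Red blood cell, epidermal and glucocorticoid-responsive genes lay furthest to the left by median, and dendritic, granulocyte and cell cycle genes furthest to the right.

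The 12 lower genes that ranked first outside the set-aside programs included genes of membrane traffic, lipid synthesis and skin. Arrdc3 (ENSMUSG00000074794, chromosome 13, 80883384 to 80896042, plus strand) encodes an alpha-arrestin that binds beta-adrenergic receptors and restrains their signaling. It was at 123, 135 and 144 CPM in the null libraries and 28, 49.4 and 40.6 CPM in the hHKDC1 OE libraries. Every hHKDC1 OE library was far below every null library, a log2 fold change of -1.77 ± 0.22 (± SE, n = 3 per group, here and below) with an adjusted p of 0.133 by edgeR and of 1.70e-07 to 0.901 over 17 alternatives. Its relative Arrdc2 (ENSMUSG00000002910, chromosome 8, 70835129 to 70839720, minus strand) was at 47.5, 75.3 and 66.8 CPM in the null libraries and 26.4, 19.6 and 13.3 CPM in the hHKDC1 OE libraries, a log2 fold change of -1.67 ± 0.29. Another family member, Arrdc4, was on the other side, at 20.1, 14.7 and 15.4 CPM in the null libraries and 21.9, 29.5 and 27.4 CPM in the hHKDC1 OE libraries, and was picked out after its values were seen. In Arrdc3 and Arrdc2 replicate 2, with the least leukocyte RNA of the hHKDC1 OE libraries, was also below every null library.

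Lpin1 (ENSMUSG00000020593, chromosome 12, 16535669 to 16610966, minus strand), a phosphatidate phosphatase of triglyceride synthesis and a nuclear coregulator, was at 729.5, 991 and 886 CPM in the null libraries and 321, 460.2 and 304 CPM in the hHKDC1 OE libraries. Every hHKDC1 OE library was below every null library. The muscle sums differed between libraries of the same group as given above, and their part in the result was not tested. The log2 fold change was -1.26 ± 0.24, with an adjusted p of 0.133 by edgeR and of 0.000142 to 1.000 over 17 alternatives. Gpam, the mitochondrial acyltransferase that starts glycerolipid synthesis, was at 159, 156 and 126 CPM in the null libraries and 81.5, 88.7 and 74.5 CPM in the hHKDC1 OE libraries. Fads1, the delta-5 desaturase of polyunsaturated fatty acids, was at 111, 108 and 118 CPM in the null libraries and 73.2, 68.3 and 65.1 CPM in the hHKDC1 OE libraries, with the replicates of each group within a narrow band. The log2 fold changes of these genes were -0.85 ± 0.15 and -0.70 ± 0.13.

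Further genes of the ranking act in transport, signaling and transcription. Slc16a10, a transporter of aromatic amino acids, had a log2 fold change of -0.96 ± 0.18, from 96.1, 91.3 and 79.5 CPM against 46.2, 54.4 and 36.8 CPM. Sh2b2, an adaptor of the insulin receptor, had one of -0.90 ± 0.18, from 69.8, 89.2 and 102 CPM against 51.4, 44.4 and 44.2 CPM. Cebpd, a transcription factor of early adipogenesis, had one of -1.39 ± 0.27, and Zfp970, a zinc finger gene, one of -1.04 ± 0.21. The remaining 3 are Krt77 and Krtdap, which are given with the epidermal genes, and Ripk4, a kinase of keratinocyte differentiation. Ripk4 was at 22.6, 20.3 and 26 CPM against 7.25, 6.55 and 6.82 CPM, without the wide spread of Krt77 and Krtdap among the null libraries.

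**Figure D3:**
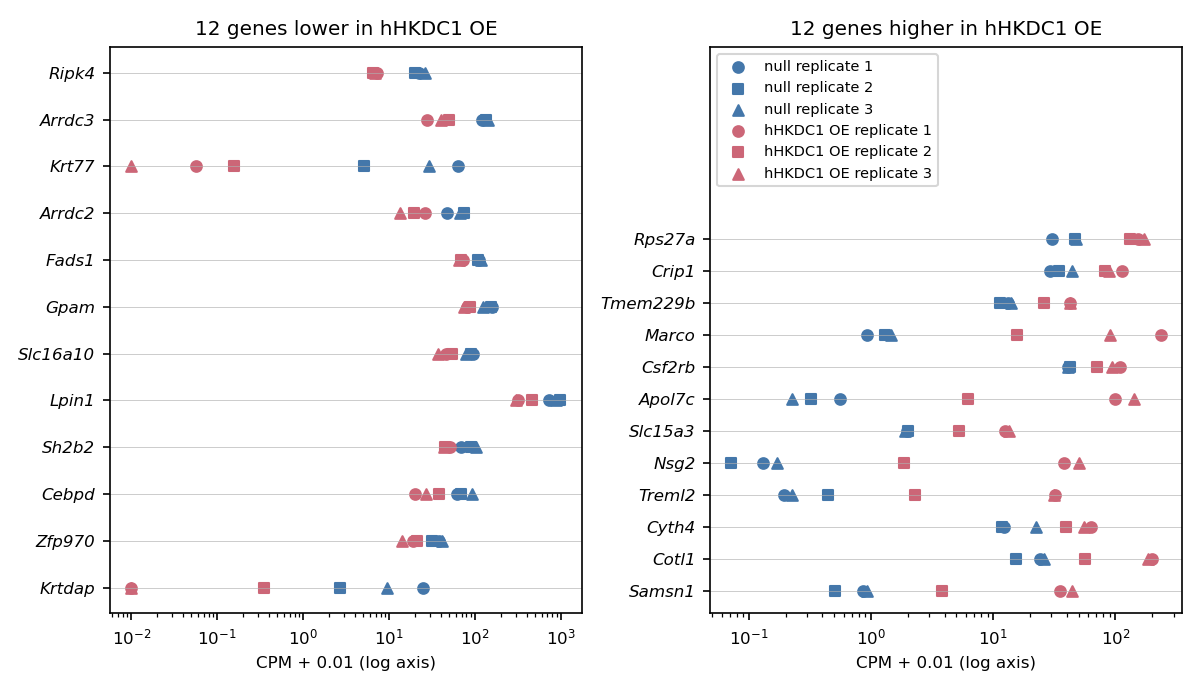
CPM plus 0.01 (log axis) in each of the 6 fat libraries for the 12 lower and the 12 higher protein-coding genes that ranked first outside the set-aside programs, null in blue and hHKDC1 OE in red, with the symbol giving the replicate. In each row the 3 hHKDC1 OE points lie on one side of the 3 null points, and in several rows of the left panel and most of the right panel hHKDC1 OE replicate 2 (square) is the hHKDC1 OE library nearest to null.

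Genes known to respond to glucocorticoids were lower together. Of 32 listed, 31 were tested, 28 had a negative and 3 a positive log2 fold change, and the median was -0.72 beside -0.05 over all genes. The groups did not overlap in 15 lower members, against 10.2% of all genes, and in 1 higher member, against 12.5%. The list was drawn up with earlier results of these data known, so this count describes its members and is no independent evidence of their direction. At an unadjusted p under 0.05 by edgeR, 14 were lower and 2 higher (6.39% and 11.3% of all genes). DESeq2 called 7 lower and 1 higher (1.08% and 6.41% over all genes). Fkbp5, the immunophilin that holds the receptor in its inactive form, was at 174, 287 and 320.3 CPM in the null libraries and 70.5, 139.8 and 49.7 CPM in the hHKDC1 OE libraries. Tsc22d3, the leucine zipper protein GILZ, was at 323, 354 and 352 CPM in the null libraries and 132, 222 and 104 CPM in the hHKDC1 OE libraries. Each gene was lowest in the 2 hHKDC1 OE libraries with most leukocyte RNA, while replicate 2 was also below every null library. Their log2 fold changes were -1.59 ± 0.42 and -1.17 ± 0.29, with adjusted p of 0.143 and 0.136 by edgeR and of 0.00440 to 1.000 over 17 alternatives and 0.00227 to 1.000 over 17 alternatives.

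Other members of the group follow. Errfi1, a feedback inhibitor of the EGF receptor, was at 96.6, 77.4 and 173 CPM in the null libraries and 56.2, 49.8 and 45.7 CPM in the hHKDC1 OE libraries. Sgk1, a kinase related to AKT, was at 129, 133 and 107 CPM in the null libraries and 70.8, 99.2 and 67.9 CPM in the hHKDC1 OE libraries, and Klf9, a Krüppel-like factor, at 182, 194 and 140.2 CPM in the null libraries and 91.4, 135 and 79.2 CPM in the hHKDC1 OE libraries. On the log2 scale the differences were -1.19, -0.63 and -0.76. Per1, which belongs to the clock as well, was at 162, 168 and 174 CPM in the null libraries and 98.9, 139.7 and 46 CPM in the hHKDC1 OE libraries, so the groups were apart although replicate 2 was only slightly below null. Zbtb16, a zinc finger repressor, was at 165, 235 and 209 CPM in the null libraries and 73.8, 165 and 28 CPM in the hHKDC1 OE libraries, and there replicate 2 reached the lowest null value. Nr3c1, which encodes the glucocorticoid receptor itself, overlapped between the groups at 196, 169.9 and 151 CPM against 133, 165 and 161 CPM, with a log2 fold change of -0.17 ± 0.17. Of the members on the other side, the groups were apart in Lcn2, lipocalin 2, an iron-siderophore binding protein of the innate response that epithelial cells and neutrophils also make, which was at 2.43, 1.43 and 1.93 CPM in the null libraries and 13, 6.45 and 16.7 CPM in the hHKDC1 OE libraries with a log2 fold change of 2.64 ± 0.43.

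**Figure D4:**
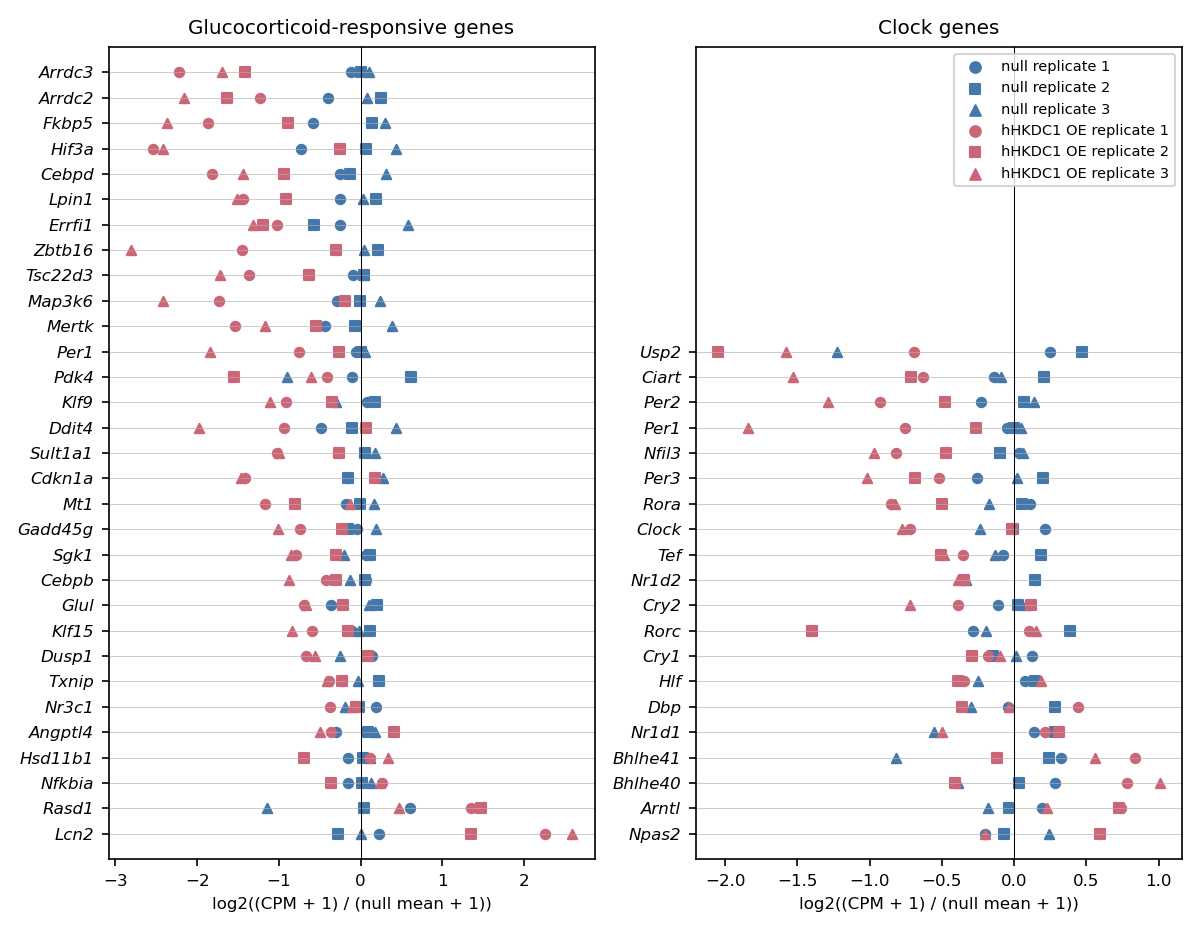
Log2 of CPM plus 1 over the null mean plus 1 for each tested gene of the glucocorticoid list (left) and of the clock list (right), one point per fat library, null in blue and hHKDC1 OE in red, with the symbol giving the replicate. Most glucocorticoid-responsive genes have their hHKDC1 OE points to the left of 0, from Arrdc3 at the top, and Lcn2 at the bottom is to the right.

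Library by library, the median member of the glucocorticoid list stood at -0.88, -0.28 and -1.004 on the log2(CPM + 1) scale in hHKDC1 OE replicates 1, 2 and 3, relative to the null mean. In replicate 2 alone, 19 of the 31 members were below every null library, where 27.2% of all genes were, and 3 were above, where 25.5% of all genes were. The leukocyte sum of that library was 7528 CPM beside 3857 to 5447 CPM in null. The median log2 fold change of the list was -0.30 when hHKDC1 OE replicates 1 and 3 were left out, which leaves 1 hHKDC1 OE library, and -0.71 without the 3 libraries rich in muscle RNA, which leaves null replicate 3, the library with most hepatocyte RNA, as the only null library. Values from these fits, here and below, describe the libraries that remain.

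The glucocorticoid receptor binds as a dimer to a pair of short sites. The motif searched was GNACANNNTGTNC, where N is any base, on both strands, in the 300 bases around each RefSeq transcription start (250 before and 50 after). It was present for 4 of the 27 genes of the list that had a promoter entry (14.8%), and for 145 of 27025 genes (0.537%) in the whole table. It was in 0 of the 17 clock genes and 0 of the 9 genes with an entry among the 12 lower ones. The list consists of genes known to respond to glucocorticoids, so matches among them are no finding about this fat. The following promoters (RefSeq, GRCm38.p6, each printed 5′ to 3′ on the strand of the gene) are the 4 with a match, which stands in capitals. The genes were at a log2 fold change of -0.63 (Sgk1), -1.15 (Map3k6), -0.64 (Mt1) and -0.34 (Txnip) in fat.
Sgk1 (chr10:21993640-21993939, plus strand): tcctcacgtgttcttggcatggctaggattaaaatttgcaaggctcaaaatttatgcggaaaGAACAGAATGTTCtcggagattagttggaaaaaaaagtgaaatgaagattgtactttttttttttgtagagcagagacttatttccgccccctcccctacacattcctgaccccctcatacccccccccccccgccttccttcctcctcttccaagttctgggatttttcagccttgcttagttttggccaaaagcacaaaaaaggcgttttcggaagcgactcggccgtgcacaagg
Map3k6 (chr4:133240568-133240867, plus strand): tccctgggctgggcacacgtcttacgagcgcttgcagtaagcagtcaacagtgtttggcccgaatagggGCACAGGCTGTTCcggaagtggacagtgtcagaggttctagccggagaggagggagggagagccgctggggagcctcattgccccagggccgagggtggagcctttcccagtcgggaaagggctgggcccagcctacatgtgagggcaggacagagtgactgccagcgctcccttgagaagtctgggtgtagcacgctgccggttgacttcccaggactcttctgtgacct
Mt1 (chr8:94178839-94179138, plus strand): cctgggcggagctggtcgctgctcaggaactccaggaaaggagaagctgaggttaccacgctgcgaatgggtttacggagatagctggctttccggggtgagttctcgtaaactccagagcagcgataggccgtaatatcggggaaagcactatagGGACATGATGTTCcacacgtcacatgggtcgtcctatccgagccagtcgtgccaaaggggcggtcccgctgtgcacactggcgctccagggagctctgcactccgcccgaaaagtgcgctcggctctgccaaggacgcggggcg
Txnip (chr3:96557707-96558006, plus strand): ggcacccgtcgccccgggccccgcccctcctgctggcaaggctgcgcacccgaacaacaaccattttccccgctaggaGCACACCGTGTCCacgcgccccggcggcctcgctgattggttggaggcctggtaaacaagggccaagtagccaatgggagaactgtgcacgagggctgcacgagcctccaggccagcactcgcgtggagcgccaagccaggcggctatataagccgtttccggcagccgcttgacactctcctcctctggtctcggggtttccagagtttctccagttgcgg

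Sgk1 has 6 promoter entries, and only the one with the match is shown. The match began 188 bases before the start in Sgk1, 181 in Map3k6, 94 in Mt1 and 172 in Txnip. Map3k6, a stress kinase, was at 96.7, 118 and 139.8 CPM in the null libraries and 34.7, 103 and 21.3 CPM in the hHKDC1 OE libraries, with replicate 2 inside the null range. Mt1, a metallothionein, was at 204, 230.2 and 261 CPM in the null libraries and 102, 132 and 211 CPM in the hHKDC1 OE libraries, with replicate 3 inside it. Txnip, a thioredoxin-binding protein that also limits glucose uptake, was at 1473, 2007 and 1687 CPM in the null libraries and 1319, 1465 and 1299.8 CPM in the hHKDC1 OE libraries, with the groups apart by a small margin.

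The clock genes were lower by less, and more evenly. Of 20 tested, 14 had a negative log2 fold change, with a median of -0.33. In 8 the groups were apart with hHKDC1 OE below (10.2% of all genes), and in 1 above (12.5%). By edgeR's unadjusted p, 7 were lower and 0 higher (6.39% and 11.3% of all genes). Rora, a nuclear receptor that activates Arntl, was at 92.2, 88.9 and 75.5 CPM in the null libraries and 46.9, 60.2 and 47.9 CPM in the hHKDC1 OE libraries. Per3 and Per2, repressors of the clock, were at 87, 119.7 and 106 CPM against 72.4, 64.4 and 50.8 CPM and at 54.5, 67.1 and 70.6 CPM against 33.2, 45.6 and 25.6 CPM. Nfil3, a repressor of the D-box genes, was at 12.6, 11.4 and 12.9 CPM in the null libraries and 6.54, 8.60 and 5.78 CPM in the hHKDC1 OE libraries. Their log2 fold changes were -0.73 ± 0.16, -0.74 ± 0.19, -0.88 ± 0.23 and -0.82 ± 0.24.

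Arntl, which encodes the activator BMAL1, was the clock gene with the groups apart in the other direction, at 4.26, 3.47 and 3.05 CPM in the null libraries and 6.68, 6.60 and 4.36 CPM in the hHKDC1 OE libraries. Clock, its partner, was at 92.5, 79.3 and 67.4 CPM in the null libraries and 47.9, 79.1 and 46 CPM in the hHKDC1 OE libraries and overlapped. Nr1d1 and Dbp, output genes with a strong daily rhythm, also overlapped, at 215, 238 and 133 CPM against 227, 243 and 138 CPM and at 97.6, 123 and 81.7 CPM against 137, 78.1 and 98.4 CPM. Their log2 fold changes of 0.05 and 0.05 were within 1 standard error of 0. Library by library, the median clock gene stood at -0.34, -0.36 and -0.47 relative to the null mean, with little difference between the hHKDC1 OE libraries, and 14 of 20 members in replicate 2 were below every null library and 4 above, beside 27.2% and 25.5% of all genes. The hour at which each mouse was killed is not given in the sources used here, and its part in the result was not tested.

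The activators of the clock bind the E-box CACGTG. It was present for 5 of the 17 clock genes with a promoter entry (29.4%), for 6 of the 27 glucocorticoid-responsive genes (22.2%), for 0 of the 9 among the 12 lower genes and for 2187 of 27025 genes (8.09%). The D-box TTATGNAA, searched on both strands, was present for 2 of the 17, Per1 and Per3, and for 3.99% of all genes. The list consists of known clock genes, so matches among them are no finding about this fat and no support for a direction. The promoters of 3 lower members that hold an E-box are shown, with each match in capitals.
Per1 (chr11:69098699-69098998, plus strand): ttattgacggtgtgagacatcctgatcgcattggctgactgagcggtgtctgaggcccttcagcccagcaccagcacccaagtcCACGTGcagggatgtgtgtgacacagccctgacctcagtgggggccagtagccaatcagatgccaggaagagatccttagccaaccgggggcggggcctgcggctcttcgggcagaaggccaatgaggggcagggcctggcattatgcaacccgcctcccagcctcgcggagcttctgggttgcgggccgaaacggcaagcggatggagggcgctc
Ciart (chr3:95882179-95882478, minus strand): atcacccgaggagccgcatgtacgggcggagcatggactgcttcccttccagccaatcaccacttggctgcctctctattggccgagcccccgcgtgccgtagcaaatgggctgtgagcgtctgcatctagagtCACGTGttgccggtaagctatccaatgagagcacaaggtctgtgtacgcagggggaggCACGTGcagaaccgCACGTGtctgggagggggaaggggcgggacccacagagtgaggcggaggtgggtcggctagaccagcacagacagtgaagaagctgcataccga
Tef (chr15:81802423-81802722, plus strand): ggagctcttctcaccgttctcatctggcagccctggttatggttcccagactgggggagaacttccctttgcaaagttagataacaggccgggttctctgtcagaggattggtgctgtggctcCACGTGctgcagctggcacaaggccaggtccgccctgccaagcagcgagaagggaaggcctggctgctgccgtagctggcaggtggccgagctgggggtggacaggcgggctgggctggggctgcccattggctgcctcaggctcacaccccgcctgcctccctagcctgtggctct

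Ciart, a repressor of the clock, holds the motif at 3 places and was at 5.65, 7.44 and 5.88 CPM in the null libraries and 3.74, 3.47 and 1.54 CPM in the hHKDC1 OE libraries. Tef, a D-box activator, was at 297, 358 and 286 CPM in the null libraries and 245, 221 and 224 CPM in the hHKDC1 OE libraries. In log2 terms these were -1.11 ± 0.40 and -0.45 ± 0.16. Per1 and Tef have 2 promoter entries each, of which the one with the match is shown.

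Genes of insulin and IGF signaling included the receptor and 2 FOXO factors among the lower ones. Of 26 tested, 21 had a negative log2 fold change (median -0.28). The groups were apart in 7 lower and 2 higher members, beside 10.2% and 12.5% of all genes. Foxo1 (ENSMUSG00000044167, chromosome 3, 52268336 to 52353221, plus strand), the FOXO factor of fasting metabolism, was at 218, 193 and 185 CPM in the null libraries and 107, 139 and 109 CPM in the hHKDC1 OE libraries. Foxo3 was at 76.9, 83.3 and 78.6 CPM in the null libraries and 49, 63.1 and 48.5 CPM in the hHKDC1 OE libraries, and Insr, the insulin receptor, at 185, 209 and 183 CPM in the null libraries and 123, 153 and 137 CPM in the hHKDC1 OE libraries. All 3 were lower in each hHKDC1 OE library than in any null library, with replicate 2 nearest to null. The differences on the log2 scale were -0.75 ± 0.16, -0.57 ± 0.15 and -0.48 ± 0.15, with adjusted p of 0.133, 0.143 and 0.179 by edgeR. Akt1 was slightly higher, at 101, 91.5 and 99.4 CPM against 116, 117 and 112 CPM. Slc2a4, the insulin-responsive glucose transporter GLUT4, overlapped at 272, 337 and 239 CPM against 268, 286 and 157 CPM. Socs2, which restrains growth hormone signaling, was high in 2 hHKDC1 OE libraries only, at 8.03, 7.26 and 10.1 CPM in the null libraries and 21.7, 7.14 and 36 CPM in the hHKDC1 OE libraries.

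Lipid synthesis was split. Of 23 tested genes, 15 had a negative log2 fold change (median -0.13, or 0.028 when only library size was used for scaling). The groups were apart in 6 genes, all lower (10.2% of all genes). Besides Lpin1, Gpam and Fads1 they included Fads2, the delta-6 desaturase, at 42.2, 34.4 and 58.2 CPM in the null libraries and 22.6, 18.1 and 13 CPM in the hHKDC1 OE libraries, with a log2 fold change of -1.33 ± 0.28, where the adjusted p was 0.133 by edgeR and 0.00160 to 0.901 over 16 alternatives. Scd1, the stearoyl-CoA desaturase, was at 53435, 63527 and 46335 CPM in the null libraries and 30778, 34748 and 38282 CPM in the hHKDC1 OE libraries, with a log2 fold change of -0.65 ± 0.43. The genes that make the carbon chain did not separate the groups. Fasn, fatty acid synthase, was at 9359, 7743 and 6012 CPM against 10966, 6998 and 6560.1 CPM, Acaca, acetyl-CoA carboxylase, at 994, 1015 and 661 CPM against 1549, 714 and 953 CPM, and Acly, ATP citrate lyase, at 991, 806 and 469 CPM against 1689, 640.5 and 696 CPM, each highest in hHKDC1 OE replicate 1.

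Genes for the mitochondrial breakdown of amino acids were lower by a small amount in each hHKDC1 OE library. Of 24 genes of branched chain amino acid breakdown, 21 were lower, with a median of -0.19 (-0.039 when only library size was used, where the median of all genes was 0.11), and 12 had all hHKDC1 OE libraries below null (10.2% of all genes) and 0 above. Mut, the methylmalonyl-CoA mutase, was at 167, 164 and 149 CPM in the null libraries and 115, 133 and 102 CPM in the hHKDC1 OE libraries, and Dbt, a subunit of the branched chain dehydrogenase, at 102, 100.5 and 92.2 CPM in the null libraries and 75.2, 73.5 and 87.5 CPM in the hHKDC1 OE libraries. The median member stood at -0.24, -0.20 and -0.20 relative to the null mean in replicates 1, 2 and 3. The citric acid cycle (median -0.12, 1 of 20 apart and lower) and fatty acid oxidation (median -0.05, 4 of 18) differed less. Cpt1a, which admits fatty acids to mitochondria, was at 135, 113 and 138 CPM in the null libraries and 69.7, 95.7 and 72.3 CPM in the hHKDC1 OE libraries, with a log2 fold change of -0.70 ± 0.18. The groups were apart in 0 of the 12 tested genes of the mitochondrial genome.

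Adipocyte markers as such did not separate the groups as clearly. Of 23 tested, 21 were lower (median -0.36), and 4 had the groups apart, all lower (10.2% of all genes). Lep, leptin, was at 2344, 1528 and 2436 CPM in the null libraries and 317, 2614 and 348 CPM in the hHKDC1 OE libraries, so that replicates 1 and 3 were far below null and replicate 2 was above all null libraries. Adipoq was at 1850.0, 2401 and 2484 CPM against 1549, 2412 and 1677 CPM. Nampt, the enzyme of NAD salvage, was lower in each hHKDC1 OE library, at 179.9, 214 and 179 CPM against 127, 125 and 160.0 CPM, and so was Nrg4, a secreted growth factor of fat, at 109.7, 127 and 108 CPM against 79.6, 57.8 and 94.7 CPM, with log2 fold changes of -0.47 ± 0.17 and -0.57 ± 0.20. Among 27 genes of the lipid droplet, lipolysis and uptake, 22 were lower (median -0.25). In all, 2 were apart and higher (12.5% of all genes) and 5 apart and lower (10.2%). An example of the lower ones was Fitm2, a protein of droplet formation, at 288, 346 and 320.3 CPM against 184, 253 and 211 CPM. The median of the adipocyte list was 0.05 with hHKDC1 OE replicates 1 and 3 left out.

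Detoxifying enzymes were among the lower genes. Of 29 tested, 21 were lower (median -0.25), 9 with the groups apart (10.2% of all genes), and 2 were apart and higher (12.5%). Aldh1a1, a retinaldehyde dehydrogenase, was at 295, 301 and 324 CPM in the null libraries and 82, 213 and 72.1 CPM in the hHKDC1 OE libraries, and Gsta3, a glutathione transferase, at 134, 119.6 and 198 CPM in the null libraries and 56.7, 89.1 and 35.2 CPM in the hHKDC1 OE libraries. Cat, catalase, was at 1003, 1245 and 1182 CPM in the null libraries and 638, 846 and 756 CPM in the hHKDC1 OE libraries. The log2 fold changes were -1.32 ± 0.41, -1.32 ± 0.36 and -0.61 ± 0.21. Liver expresses these enzymes too, and the hepatocyte marker sum, like Aldh1a1 and Gsta3, was highest in null replicate 3. Its part in the result was not tested. On the other side were Slc7a11, the cystine transporter, at 0.304, 0.0620 and 0.107 CPM in the null libraries and 13.7, 1.22 and 21 CPM in the hHKDC1 OE libraries, and Hmox1, heme oxygenase, at 32.2, 24.9 and 39 CPM in the null libraries and 59.5, 42.1 and 44.8 CPM in the hHKDC1 OE libraries.

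Genes of the supporting tissue were low in 2 of the 3 hHKDC1 OE libraries. Of 32 matrix genes, 30 were lower by edgeR's fold change (median -0.43), but the groups were apart in only 2 lower members (10.2% of all genes). The median matrix gene stood at -1.36, 0.30 and -0.93 relative to the null mean in replicates 1, 2 and 3. Nid1, nidogen of the basement membrane, was at 1164, 1065 and 1125 CPM in the null libraries and 350.0, 1037 and 399 CPM in the hHKDC1 OE libraries, and Col1a1, the main fibrillar collagen chain, at 791, 553 and 849 CPM in the null libraries and 301, 1029 and 515 CPM in the hHKDC1 OE libraries. Postn, periostin, was the member apart and higher, at 158, 120.2 and 152 CPM in the null libraries and 161, 204 and 277 CPM in the hHKDC1 OE libraries. When replicates 1 and 3 were left out, the median of the matrix list was 0.25, of blood endothelium 0.17 and of mural cells 0.05, beside -0.43, -0.27 and -0.50 over all libraries. Acta2, smooth muscle actin, shows the pattern, at 229.5, 196 and 240.0 CPM in the null libraries and 67.6, 215 and 51 CPM in the hHKDC1 OE libraries.

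**Figure D5:**
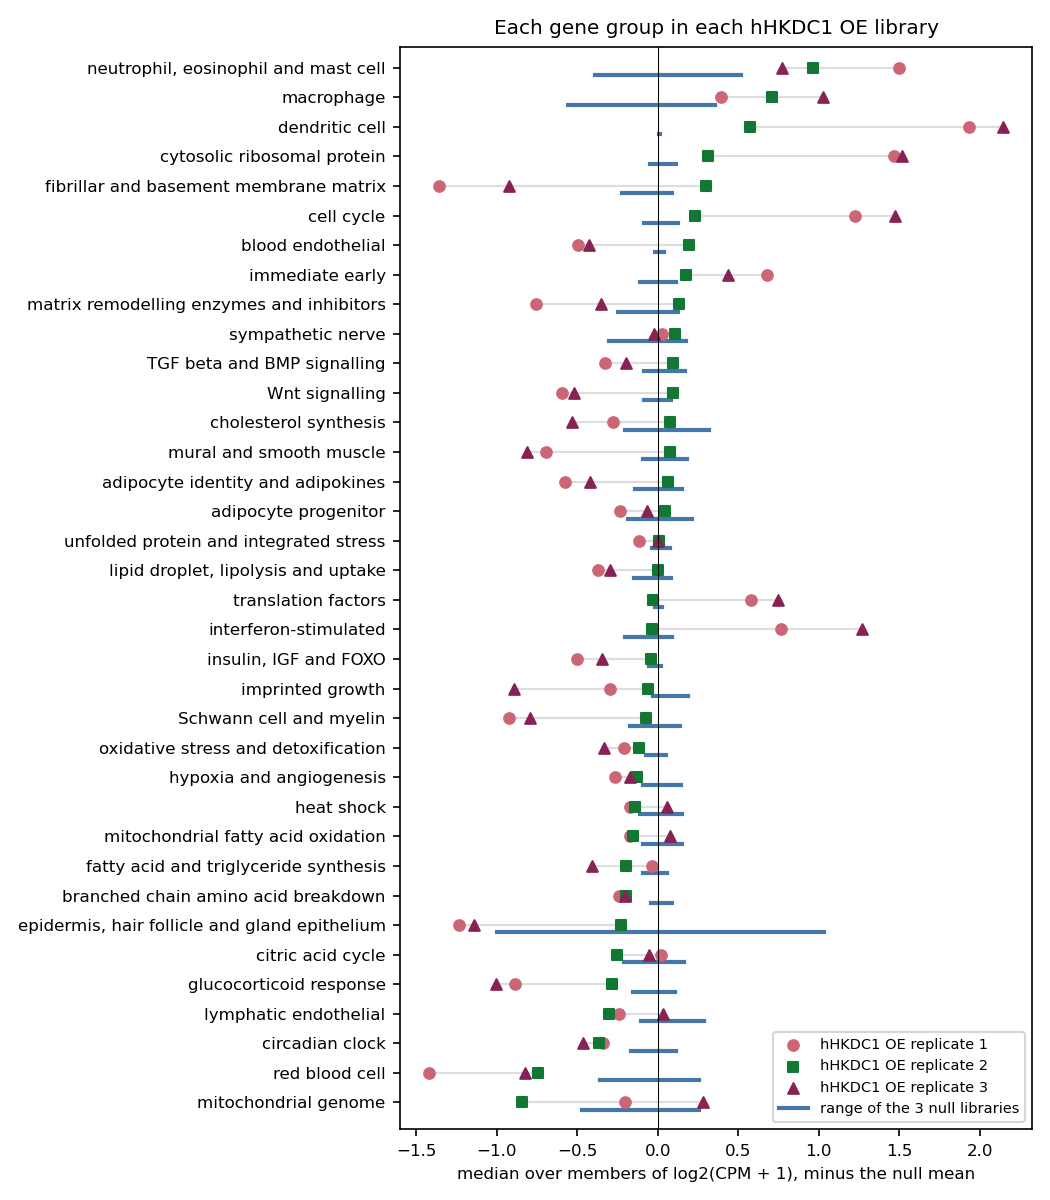
Median over the tested members of each gene group of log2(CPM + 1) minus the null mean, in hHKDC1 OE replicates 1, 2 and 3 (circle, square and triangle), with a blue bar for the range of the 3 null libraries, sorted by replicate 2. Fibrillar and basement membrane matrix, blood endothelial and mural genes have replicate 2 within or above the range of the null libraries and replicates 1 and 3 below them, whereas clock and branched chain amino acid genes have the 3 symbols together.

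The nerve sheath followed a related order. Of 21 genes of Schwann cells and myelin, 19 were lower (median -0.69) and 7 had the groups apart (10.2% of all genes). Their median was -0.10 with hHKDC1 OE replicates 1 and 3 left out and -0.32 without the 3 libraries rich in muscle RNA. Scn7a, a sodium channel of Schwann cells and other glia, was at 253, 217 and 172 CPM in the null libraries and 100.5, 152 and 113 CPM in the hHKDC1 OE libraries. Mbp, a protein of myelin, was at 123, 132 and 112 CPM against 65, 98.8 and 70.3 CPM, with replicate 2 between the other hHKDC1 OE libraries and null. On the log2 scale the differences were -0.81 ± 0.22 and -0.65 ± 0.19. The median of 16 imprinted growth genes was -0.097 with hHKDC1 OE replicates 1 and 3 left out. Over all libraries, 15 of the 16 were lower (median -0.58) and 3 apart and lower (10.2% of all genes). Among them was Peg3, a paternally expressed zinc finger gene, at 75.9, 122 and 113 CPM in the null libraries and 34.4, 63.2 and 26.4 CPM in the hHKDC1 OE libraries. Mest, whose level in fat varies widely between mice and tracks fat expansion, was at 335, 166 and 400.3 CPM in the null libraries and 20.8, 282 and 29.5 CPM in the hHKDC1 OE libraries.

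Many skin and blood genes were also lower. Of 22 genes of epidermis, hair follicle and glands, 8 were apart and lower (10.2% of all genes) and 3 apart and higher (12.5%). Krt1, a keratin of the upper epidermis, was counted 435, 30 and 215 times in null fat and 0, 0 and 0 times in hHKDC1 OE fat, where 0 allows up to 3 counts per library and covers counting error only. Krt77 had 1049, 82 and 545 counts against 1, 3 and 0, Krtdap 415, 43 and 179 against 0, 7 and 0, and Lor, loricrin of the cornified envelope, 869, 37 and 357 against 7, 19 and 6. These genes varied widely among the null libraries as well, with null replicate 2 lowest each time. Sfn, an epithelial 14-3-3 protein, was on the other side, at 9.73, 4.15 and 4.76 CPM in the null libraries and 17.1, 19.6 and 14.7 CPM in the hHKDC1 OE libraries, and was picked out after its values were seen. Ripk4, among the 12 lower genes, is also expressed in epithelia, with a log2 fold change of -1.74 ± 0.19, where the adjusted p was 0.133 by edgeR and 8.56e-09 to 0.944 over 17 alternatives.

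All 5 tested red blood cell genes were lower, with a median of -1.09, and in 4 the groups were apart (10.2% of all genes). Hbb-bs, a beta globin chain, was at 415, 284 and 394 CPM in the null libraries and 118, 214 and 181 CPM in the hHKDC1 OE libraries, and Alas2, the heme synthesis enzyme of red cell precursors, at 27.2, 16.9 and 24 CPM in the null libraries and 8.29, 10.6 and 12.2 CPM in the hHKDC1 OE libraries. In log2 terms these were -1.09 ± 0.27 and -1.13 ± 0.25, with adjusted p of 0.136 and 0.133 by edgeR. Globin genes are near-identical copies, so the counts of one copy are uncertain. The amount of blood left in the tissue was not measured, and its part in this difference was not tested.

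The 12 higher genes that ranked first outside the programs included several that immune cells express. Marco, a scavenger receptor of macrophages, was at 0.912, 1.30 and 1.44 CPM in the null libraries and 235, 15.6 and 90.5 CPM in the hHKDC1 OE libraries. Csf2rb, the shared receptor chain for IL-3, IL-5 and GM-CSF, was at 41.3, 42.4 and 41.2 CPM in the null libraries and 109.8, 70.2 and 94.7 CPM in the hHKDC1 OE libraries. Apol7c, Treml2, Samsn1, Slc15a3, Cyth4 and Cotl1 had the same order, with replicate 2 above null and below the other hHKDC1 OE libraries, as in Apol7c at 0.547, 0.310 and 0.214 CPM in the null libraries and 99.9, 6.26 and 143 CPM in the hHKDC1 OE libraries and Cotl1 at 24.3, 15.5 and 26.1 CPM in the null libraries and 199.6, 56.2 and 185 CPM in the hHKDC1 OE libraries. Nsg2 was at 0.122, 0.0620 and 0.160 CPM in the null libraries and 37.7, 1.86 and 50.6 CPM in the hHKDC1 OE libraries and Tmem229b at 13.3, 11.3 and 14.1 CPM in the null libraries and 42.4, 26 and 42.4 CPM in the hHKDC1 OE libraries. Crip1, a small LIM domain protein, and Rps27a, a fusion of ubiquitin and a ribosomal protein, were nearly as high in replicate 2 as in the others, at 29.1, 34.6 and 44.5 CPM against 114, 83 and 88 CPM and at 30.1, 46.7 and 47.2 CPM against 155, 131 and 173 CPM. Of the 1200 protein-coding genes with at least 5 CPM that lay above null outside the programs, replicate 2 was the lowest hHKDC1 OE library in 983 (81.9%). Among the 1274 below null it was the highest in 900 (70.6%). The leukocyte sum was also lowest in replicate 2 among the hHKDC1 OE libraries, and its part in the result was not tested.

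Log2 fold changes in the ranking ran from 1.14 ± 0.18 for Csf2rb to 7.85 ± 1.28 for Apol7c, leaving out Nsg2, which had 1 to 3 counts per null library and is given no fold, and the adjusted p of all 12 by edgeR was 0.133. Marco had a log2 fold change of 6.53 ± 1.03 and adjusted p of 1.62e-08 to 1.000 over 17 alternatives. Without the libraries with most leukocyte RNA, hHKDC1 OE replicates 1 and 3, its log2 fold change was 3.67, that of Csf2rb 0.75, that of Rps27a 1.67 and that of Apol7c 4.11. Of the 12 lower genes, leaving out Krt77 and Krtdap with few or no counts in hHKDC1 OE fat, the values without these libraries were nearer to 0 in Arrdc3 (-1.44), Slc16a10 (-0.71), Lpin1 (-0.92), Cebpd (-0.96), Zfp970 (-0.81) and Gpam (-0.73). They were as large or larger in Ripk4 (-1.81), Arrdc2 (-1.69), Fads1 (-0.72) and Sh2b2 (-0.97). Fkbp5 and Tsc22d3 of the glucocorticoid list were at -0.90 and -0.63. Among the gene groups, the same fit gave medians of -0.059 for insulin, IGF and FOXO, -0.014 for the lipid droplet, -0.14 for detoxification, -0.33 for epidermis, 0.32 for ribosomal proteins, 0.24 for the cell cycle, 0.17 for immediate early genes and 0.86 for dendritic cells.

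Serum amyloid A genes were higher in each hHKDC1 OE library, with replicates 2 and 3 close to each other. They encode apolipoproteins of the acute phase, made by liver and, for Saa3, also by fat and macrophages. Saa1 and Saa2 stand on the hepatocyte list, and all 3 were named after their values were seen. Saa2 (ENSMUSG00000057465, chromosome 7, 46751790 to 46754313, plus strand) was at 0.426, 0.496 and 1.55 CPM in the null libraries and 120.0, 55.9 and 51.6 CPM in the hHKDC1 OE libraries, Saa1 at 0.669, 1.98 and 3.74 CPM in the null libraries and 129.9, 56.6 and 61.7 CPM in the hHKDC1 OE libraries and Saa3 at 3.28, 0.186 and 3.42 CPM in the null libraries and 19.99, 22.6 and 20.7 CPM in the hHKDC1 OE libraries. The lowest hHKDC1 OE value of Saa2 was 51.6 CPM and the highest null value 1.55 CPM. Liver RNA was present in each fat library, with 8463 to 89742 counts of Alb, and its part in the Saa values was not tested. Log2 fold changes were 6.49 ± 0.62, 5.26 ± 0.65 and 3.19 ± 0.79, with adjusted p of 0.133, 0.133 and 0.137 by edgeR and, for Saa2, of 5.73e-32 to 0.640 over 15 alternatives. In liver the same genes had log2 fold changes of 7.32, 6.41 and 3.80, where no gene of 13351 passed an adjusted p of 0.05 by edgeR. Saa1 and Saa2 are near-identical copies, and their separate counts are uncertain.

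Macrophage genes were mostly higher, and summed to 1298, 668 and 1356 CPM in the null libraries and 1868, 1768 and 2158 CPM in the hHKDC1 OE libraries. Of 30 macrophage genes, 22 were higher (median 0.80), with 15 apart and higher (12.5% of all genes) and 1 apart and lower (10.2%). DESeq2 called 10 higher (6.41% over all genes). In replicate 2, 25 of 30 were above every null library (25.5% of all genes). Lyz2, lysozyme of myeloid cells, was at 211, 97.1 and 196 CPM in the null libraries and 680.1, 326 and 833 CPM in the hHKDC1 OE libraries, and C1qc, a complement chain made by tissue macrophages, at 59.6, 39.6 and 76.3 CPM in the null libraries and 106, 99.4 and 127 CPM in the hHKDC1 OE libraries. Timd4, a receptor for phosphatidylserine, was at 2.86, 1.30 and 1.39 CPM in the null libraries and 56.3, 4.25 and 80.05 CPM in the hHKDC1 OE libraries. The resident macrophage genes Cd163 and Retnla went another way, at 73.4, 42.4 and 100.2 CPM against 8.05, 123 and 11.7 CPM and at 278, 73.9 and 233 CPM against 14.4, 308 and 16.9 CPM, far below null in replicates 1 and 3 and above it in replicate 2. Mertk, a receptor for dying cells that glucocorticoids induce, was the member apart and lower, with a log2 fold change of -1.05.

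Of 14 dendritic cell genes listed, 13 passed the filter on low counts and had a positive log2 fold change, 9 with the groups apart. Some passed it only through the hHKDC1 OE libraries, so the count is no support for a direction. Xcr1, the chemokine receptor of cross-presenting dendritic cells, was at 0.426, 0.372 and 0.267 CPM in the null libraries and 5.40, 0.978 and 7.62 CPM in the hHKDC1 OE libraries, and Ccl22, a chemokine of mature dendritic cells, at 0.669, 0.806 and 0.749 CPM in the null libraries and 47.9, 2.35 and 39.7 CPM in the hHKDC1 OE libraries. Of 24 genes of neutrophils, eosinophils and mast cells, 11 passed the filter, of which 9 were higher and 5 apart, with the same limit. Mcpt4, a mast cell chymase, was at 11.1, 2.29 and 4.65 CPM in the null libraries and 38.9, 14 and 45.9 CPM in the hHKDC1 OE libraries, and Csf3r, the G-CSF receptor, at 1.34, 0.558 and 1.60 CPM in the null libraries and 8.39, 3.13 and 6.64 CPM in the hHKDC1 OE libraries. S100a9, which neutrophils hold in large amounts, was below 1 CPM in null and at 8.53, 1.03 and 1.05 CPM in hHKDC1 OE fat.

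Ribosomal protein genes were higher in bulk. Of 84 tested, 83 were higher (median 1.24), 56 with the groups apart (12.5% of all genes). The 84 summed to 13513, 13518 and 14916 CPM in the null libraries and 38538, 16943 and 41437 CPM in the hHKDC1 OE libraries. Rpl21 was at 34.1, 55.1 and 49.1 CPM in the null libraries and 218, 96.9 and 217 CPM in the hHKDC1 OE libraries and Rps16 at 105, 101 and 119.6 CPM in the null libraries and 472, 185 and 408 CPM in the hHKDC1 OE libraries. Ribosomal protein genes have many pseudogene copies that can share reads. The 26 genes of translation factors had a median of 0.49, with 7 apart and higher (12.5% of all genes). Their median was -0.033 with hHKDC1 OE replicates 1 and 3 left out. They stood at 0.58, -0.03 and 0.75 in replicates 1, 2 and 3, so that replicate 2 was at the null level, while the ribosomal genes stood at 1.47, 0.31 and 1.52. Cell cycle genes were higher in 29 of 30 (median 1.39), 17 apart and higher (12.5% of all genes). Top2a and Mki67, markers of dividing cells, were at 6.63, 5.33 and 8.02 CPM against 25.7, 9.39 and 35.5 CPM and at 8.82, 9.74 and 12.5 CPM against 27.9, 12.6 and 46.3 CPM. The leukocyte sums stood highest in the same 2 libraries, and their part in these groups was not tested.

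Immediate early genes, which cells switch on within minutes of a stimulus, were divided. Of 30 tested, 12 were apart and higher (12.5% of all genes) and 2 apart and lower (10.2%), with a median of 0.53. Egr1 was at 18.8, 21 and 15.8 CPM in the null libraries and 35, 30.01 and 31.2 CPM in the hHKDC1 OE libraries, with the 3 hHKDC1 OE libraries close together, and Klf2, a factor of endothelium and lymphocytes, at 59.6, 65.4 and 73.2 CPM in the null libraries and 154, 91.8 and 123 CPM in the hHKDC1 OE libraries. Dusp2, a phosphatase of activated leukocytes, was at 0.426, 0.434 and 1.02 CPM in the null libraries and 41.2, 2.98 and 30.5 CPM in the hHKDC1 OE libraries, and Socs3, a feedback inhibitor of cytokine signaling, at 4.195, 6.08 and 3.74 CPM in the null libraries and 23.1, 6.31 and 21.6 CPM in the hHKDC1 OE libraries. The differences on the log2 scale were 0.79 ± 0.17, 0.89 ± 0.21, 5.28 ± 1.01 and 1.86 ± 0.51.

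The effect in fat was set against that in liver as an interaction in 1 fit of the 12 libraries, whereas the effects within fat and within liver come from separate fits with their own scaling, so a difference between tissues need not equal the gap between the separate values. Whether a fat and a liver library of the same number came from the same mouse is not given in the labels, and the fit had no term for the mouse. In the edgeR test with the same adjustment, 0 of 17070 genes (0%) had an effect that differed between the tissues at an adjusted p under 0.05, the smallest being 0.139, and 2163 had an unadjusted p under 0.05. Arrdc3 had a log2 fold change of -1.77 in fat and 1.45 in liver, a difference of -3.14 (adjusted p = 0.139 by edgeR). Fkbp5, Tsc22d3 and Lpin1 were lower in both tissues by these values, at -1.27, -1.10 and -1.33 in liver, with differences of -0.23, 0.01 and 0.14 between the tissues. Fads1 and Fads2 were at -0.82 and -1.07 in liver. None of these liver values passed an adjusted p of 0.05 by edgeR.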

How the data were processed

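RNA libraries of subcutaneous fat and liver were sequenced as non-stranded read pairs. The deposited counts of reads per gene were made by the authors, whose processing notes name STAR 2.5, HTSeq 0.6.1 and DESeq2. The methods name a human reference, while the gene identifiers are those of mouse and the coordinates GRCm38. No replicate was pooled.

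From the counts, genes with low values were removed with filterByExpr, libraries were scaled by TMM and groups compared by the quasi-likelihood test of edgeR 4.0.16 with Benjamini-Hochberg adjustment over all genes tested, at a threshold of 0.05. DESeq2 1.42.0, other scalings and filters, a replicate block, 1 fit of all 12 libraries, removal of program genes and each library left out in turn were the alternatives. A further 2 were added after the data were seen, leaving out the 2 hHKDC1 OE libraries with most leukocyte RNA and the 3 libraries with most muscle RNA. Values per library are CPM, with a pseudocount of 1 for log2(CPM + 1). The test was run on simulated counts in which 200 genes were set at a log2 fold change of 2. At the threshold of 0.05 edgeR called 67.5% of them and DESeq2 90.5%. Each gene was drawn separately, so the simulation lacks the tissue differences between libraries seen here and does not cover them.

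Genes were named by rank: the 12 protein-coding genes in each direction with the smallest p, a mean of at least 5 CPM and groups that did not overlap, outside the programs, and up to 4 per group by the same order. Others are said to have been picked after their values were seen or are defining members of a list. Members and lists were chosen with earlier results of these data known. Programs were set aside by marker lists and, for hepatocytes, also by a liver level at least 10 times that of fat. Some genes are not reported here.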

Additional observations from a re-analysis of the deposited data

How the results depend on the processing

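The main test called 0 genes in either direction, and so did the alternatives with RLE or upper-quartile factors, library size alone, with at least 10 counts in every library, or the program genes removed. Leaving out the libraries rich in leukocyte or muscle RNA also gave 0, but leaves 1 library in an arm, assumed to vary like the others, so that 0 says nothing about stability. Without the filter on low counts 723 genes were called higher and 80 lower (452 and 50 outside the programs), and with 12 libraries in 1 fit 770 and 106 (534 and 61). The DESeq2 fit given above, counted over all its genes, called 1244 and 190 (904 and 121). Leaving out 1 library in turn gave 0 to 1957 higher and 0 to 1294 lower genes (0 to 1597 and 0 to 1267 outside the programs). The upper ends came without hHKDC1 OE replicate 2, the one nearest to null in leukocyte RNA, and without null replicate 3 there were 0 higher and 2 lower. The replicate block gave 159 and 9 (68 and 5). Replicate numbers were not shown to pair the mice, since the correlations of same-numbered libraries were 0.031, -0.14 and 0.039, so the block is not read as a paired analysis. The cause of these changes was not tested.

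With hHKDC1 OE replicates 1 and 3 left out, the log2 fold changes that changed sign were Timp1 -0.055, Stab2 -0.43, Sned1 0.016, Mmrn1 -1.17, Pdia4 -0.042, Socs2 -0.24, mt-Nd3 -0.27, Oas3 -0.025, Dbp -0.37, Adipoq 0.10, Lep 0.31, Slc2a4 0.017, Fasn -0.14, Col1a1 0.49, Cd163 0.77, Retnla 0.66, Acaca -0.32 and Acly -0.24. Without the 3 libraries rich in muscle RNA they were mt-Nd4l 0.20, mt-Cytb 0.00546 and Nr3c1 0.077. Over the fits that left out 1 library, sign changes occurred in these ranges: Nr1d1 -0.18 to 0.27, Dbp -0.19 to 0.21, Fasn -0.19 to 0.22, Col1a1 -0.85 to 0.078, Acaca -0.095 to 0.48 and Acly -0.18 to 0.65. Of 36 gene groups, the median kept its sign under every alternative tried for it in 17 and lost it in 19. Depth limits genes with few counts, such as the keratins. The p-values measure the spread between 3 mice per group.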

Other observations

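Interferon-stimulated genes were higher by edgeR's fold change in 31 of 32 tested (median 0.82), yet the groups were apart in only 2, both higher (12.5% of all genes). The median member stood at 0.77, -0.04 and 1.27 relative to the null mean in hHKDC1 OE replicates 1, 2 and 3, so replicate 2 was at the null level, and the median log2 fold change was -0.065 with replicates 1 and 3 left out. Wnt signaling genes were lower in 19 of 26 (median -0.42), with replicates at -0.59, 0.09 and -0.52, and the median was 0.029 both without hHKDC1 OE replicates 1 and 3 and without the 3 libraries rich in muscle RNA. Cholesterol synthesis (median -0.24), hypoxia and angiogenesis (median -0.20) and TGF beta and BMP signaling (median -0.14) were nearer to the median of all genes, as were heat shock genes (median -0.05) and those of the unfolded protein response (median -0.04).

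Some genes were higher without the order of the leukocyte sums. Of the 1200 protein-coding genes with at least 5 CPM that lay above null outside the programs, replicate 2 was the highest hHKDC1 OE library in 57. In 109 it was at least at the mean of the other hHKDC1 OE libraries. Casp1 and Plekho2 are among the 109 and were picked out after their values were seen. Casp1, the inflammatory caspase, was at 11.7, 8.81 and 8.51 CPM in the null libraries and 15.1, 18.3 and 20.8 CPM in the hHKDC1 OE libraries, with a log2 fold change of 0.90 ± 0.23. Plekho2, a gene of macrophage survival, was at 26.9, 18.7 and 20.6 CPM in the null libraries and 35, 37.8 and 38.7 CPM in the hHKDC1 OE libraries, with one of 0.75 ± 0.18. In both genes replicate 2 was above replicate 1.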
